A study of Homo sapiens with 6 samples.

Results

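The genes described here encode the 4 subunits of the chromosomal passenger complex (AURKB, INCENP, BIRC5 and CDCA8) and 6 factors that build and cut the bridge between daughter cells (PRC1, ECT2, RACGAP1, ANLN, CEP55 and CIT). They were taken by gene name from a table of 58825 genes, in which all 10 were found. All 10 were among the 12714 genes with at least 1 FPKM (sequenced fragments scaled to transcript length and library size) in at least 3 libraries, which were the genes tested. Messenger RNA had been sequenced from T24 cells, an established human bladder carcinoma line grown in medium with serum. The 3 control libraries carried a hairpin named shNC-1, with the genotype given as WT, and the other 3 carried a hairpin named shDLGAP5-1. DLGAP5, also called HURP, is a mitotic protein of the spindle's kinetochore fibres. Each group is a single hairpin in a single line, and the labels do not say whether samples came from separate cultures, so every p-value here speaks only of the spread among these libraries, which may be technical.

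The chromosomal passenger complex moves from centromeres in early mitosis to the middle of the anaphase spindle and then to the midbody. AURKB is its kinase, INCENP the scaffold that activates the kinase, and BIRC5 (survivin) and CDCA8 (borealin) the subunits that bind chromatin and guide it. At the spindle midzone PRC1 bundles antiparallel microtubules, and RACGAP1 together with a kinesin recruits ECT2, which switches on RHOA so that a ring of actin and myosin closes. ANLN ties that ring to the membrane, CIT holds the ring and the midbody together, and CEP55 brings the membrane-cutting machinery to the midbody. Transcripts of such genes are made mostly in late S phase, G2 and mitosis. Promoters of many late cell cycle genes carry a cell cycle homology region, abbreviated CHR, which is bound by the DREAM and MuvB complexes, and CCAAT boxes, which are bound by NF-Y.

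Promoters of 8 of the 10 genes were found in the RefSeq promoter table (GRCh38.p14), each reaching from 250 bases before a start of transcription to 50 bases after it. BIRC5 and RACGAP1 had no entry. The CHR letters TTTGAA, searched on both strands, were in promoters of 7 of these 8 genes (8 of 10 promoters, since AURKB and ECT2 have more than 1 start). Of all 35116 promoters of that length 15.2% hold these letters, and of the 13489 promoters of tested genes 10.1%. The gene without a match was AURKB. The letters CCAAT were in promoters of 7 of the 8 genes too, against 34.6% of all promoters, and the gene without them was ANLN. The 30 bases around the CHR match nearest before the start are shown so that the spacing and the neighbouring letters can be compared. They run 5′ to 3′ along the gene, and capitals mark TTTGAA and CCAAT in either orientation (TTCAAA and ATTGG on the opposite strand).
INCENP, chr11:62123989-62124018, plus strand: tgagccttcagtTTTGAAaatcatagtttt
CDCA8, chr1:37692481-37692510, plus strand: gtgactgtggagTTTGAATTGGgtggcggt
PRC1, chr15:90994538-90994567, minus strand: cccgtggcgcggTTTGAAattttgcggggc
ECT2, chr3:172750599-172750628, plus strand: tcgttgggcttaTTTGAAacacacgcacaa
ANLN, chr7:36389830-36389859, plus strand: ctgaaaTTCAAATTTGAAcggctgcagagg
CEP55, chr10:93496597-93496626, plus strand: gcagccgcgggaTTCAAActcccggaagcg
CIT, chr12:119877511-119877540, minus strand: gtaaccgCCAATTTCAAActtccaagacct
Counted from the first RefSeq start listed, the match began 10 bases before the start in INCENP, 20 in PRC1 and ANLN, 23 in CDCA8, 3 in CEP55, 115 in ECT2 and 208 in CIT. ECT2 and CIT also hold a match after that start, not shown, which is nearer to it. It begins at base 35 after the start in ECT2 and, reversed, at base 11 in CIT. In CDCA8 the CHR letters overlap a reversed CCAAT box, and in ANLN matches on opposite strands stand side by side. A letter match is a description and does not show that a factor is bound in these cells. Of the 120 bases before the first RefSeq start, annotated exons of the gene cover 120 in PRC1, 98 in CDCA8, 56 in ANLN, 44 in ECT2 and 38 in INCENP. The CHR matches shown for INCENP, CDCA8, PRC1 and ANLN lie within the deposited coordinates of the gene. The longer CEP55 promoter, 120 bases before its start (chr10:93496492-93496611, plus strand), lies outside annotated exons of the gene and holds a further reversed CHR match close to a CCAAT box.
CEP55: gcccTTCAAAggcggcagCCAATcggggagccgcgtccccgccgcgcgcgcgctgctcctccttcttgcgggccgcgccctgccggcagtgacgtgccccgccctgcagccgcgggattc

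Depth, estimated from the smallest steps of low values, was about 21600000 to 27500000 fragments per control and 13700000 to 18300000 per shDLGAP5-1 library. DLGAP5 itself stood at 29.7 to 33.0 FPKM in controls and at 4.0 to 7.51 FPKM with its hairpin, 82.7% lower by the means, so the labels and the target transcript match. Of the 5 epithelial markers KRT7, KRT8 and KRT18 were abundant and EPCAM stood near 1 FPKM in both groups, and KRT19 was the one called, at 17.8 to 20.9 FPKM in controls and 10.6 to 11.1 FPKM with the DLGAP5 hairpin (limma adjusted p = 0.00438). The 6 leukocyte markers summed to 707 FPKM in shDLGAP5-1 replicate 3 against 7.74 to 30.6 FPKM elsewhere. Of this sum LYZ, lysozyme, gave 686 FPKM and PTPRC, the common leukocyte antigen, 7.03 FPKM. CD68 stood at 12.97 FPKM there and at 4.507 to 9.125 FPKM elsewhere. CD14 stood at 0.128 to 0.232 FPKM in controls and at 0.468 to 0.536 FPKM in shDLGAP5-1, with 0.482 FPKM in replicate 3. CD79A (0.0968 FPKM in that replicate, 0 to 0.169 elsewhere) was not raised, and CD3E was listed at 0 in every library. The 4 endothelial markers summed to 8.46 FPKM in that library, nearly all from PECAM1, and to at most 0.402 FPKM elsewhere, and the 5 fibroblast markers to 1.35 to 6.05 FPKM over all libraries.

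Transcripts of 9 of the 10 genes were lower in shDLGAP5-1 cells and 0 were higher (limma on log2(FPKM + 1), Benjamini-Hochberg adjusted p under 0.05 over all tested genes). Over all tested genes 9.52% were called lower and 15.3% higher. The median log2 fold change of the 10 genes was -0.72, against 0.03 for all tested genes, and 4.44% of tested genes had a value at or below it. In the same 9 genes every shDLGAP5-1 library lay under every shNC-1 library, which was so for 18.3% of all tested genes, while the reverse, every shDLGAP5-1 library above every control, was so for 25.6% of tested genes and 0 of the 10. The exception was CIT. In bulk samples fewer cells in mitosis and less of these transcripts per cell cannot be told apart.

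**Figure D1:**
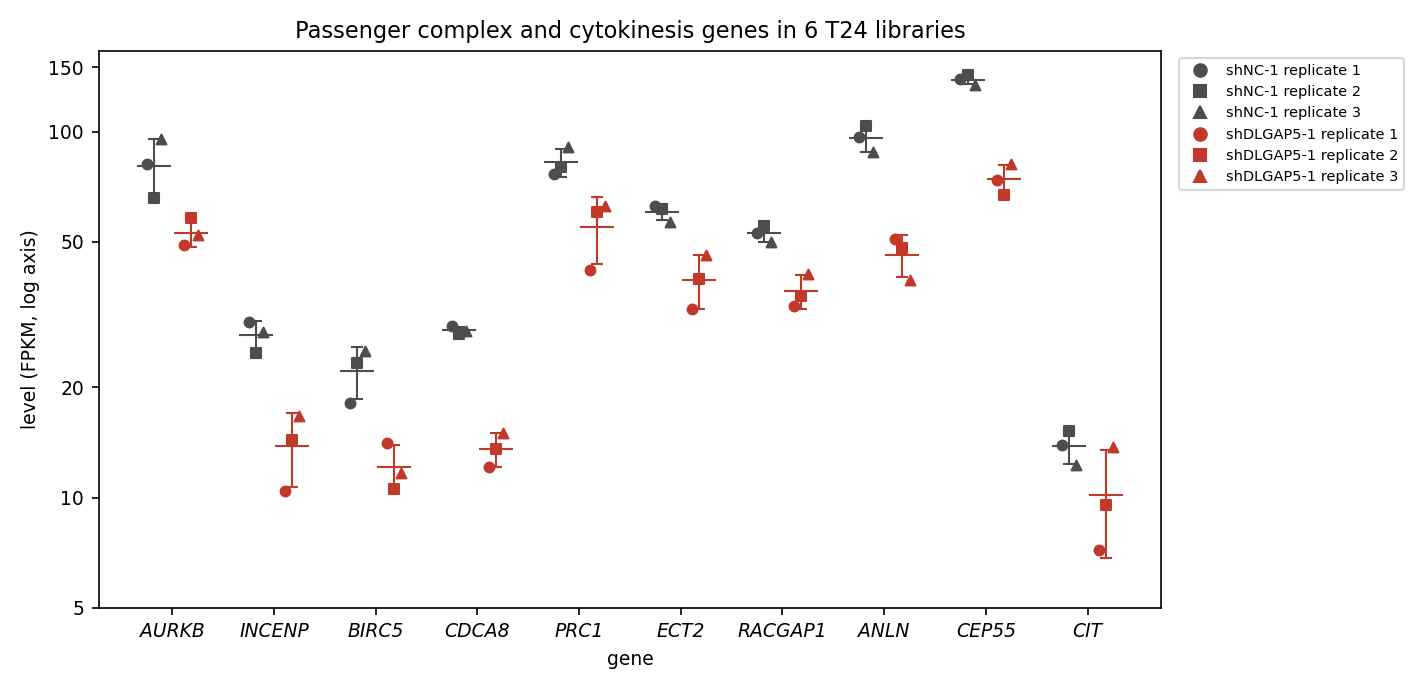
Level of each gene in each library (FPKM, log axis), with shNC-1 in grey and shDLGAP5-1 in red; symbols mark replicates, and bars show the mean ± SD of 3 libraries. The groups are apart for every gene but CIT, whose shDLGAP5-1 replicate 3 (13.8 FPKM) lies within the control range.

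Of the passenger complex, the kinase had the fold change nearest to 0. AURKB (ENSG00000178999, chromosome 17, 8204733 to 8210600) stood at 81.3, 65.7 and 95.3 FPKM in the 3 controls (replicates 1 to 3 in turn) and at 49.0, 57.9 and 52.1 FPKM with the DLGAP5 hairpin. The controls were spread widely, and the lowest of them, replicate 2, lay only 7.84 FPKM above the highest shDLGAP5-1 library. Its mean fell from 80.8 ± 14.8 to 53.0 ± 4.53 FPKM (SD, n = 3 each), or -0.59 on the log2 scale (95% interval -0.94 to -0.23, limma adjusted p = 0.0314). The call was lost in 5 of 6 fits that left out a library, all but that without shNC-1 replicate 2, with adjusted p of 0.0546 to 0.0958.

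INCENP, the scaffold (ENSG00000149503, chromosome 11, 62123998 to 62153169), stood at 30.2, 24.8 and 28.3 FPKM in controls and at 10.4, 14.3 and 16.7 FPKM with shDLGAP5-1. The groups were well apart, and its mean fell from 27.7 ± 2.71 to 13.8 ± 3.17 FPKM (SD, n = 3 each), 50.2% lower. The log2 fold change was -0.97 (95% interval -1.39 to -0.56, limma adjusted p = 0.00932). CDCA8, borealin (ENSG00000134690, chromosome 1, 37692481 to 37709719), had the tightest controls of the 10 genes, at 29.4, 28.0 and 28.6 FPKM. Its shDLGAP5-1 libraries held 12.1, 13.6 and 15.0 FPKM, all under the controls by at least 13.0 FPKM. This was a drop of 52.6%, with a log2 fold change of -1.03 (95% interval -1.29 to -0.77, limma adjusted p = 0.00159).

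BIRC5, survivin (ENSG00000089685, chromosome 17, 78214186 to 78225636), stood at 18.2, 23.3 and 25.1 FPKM in controls and at 14.1, 10.5 and 11.7 FPKM with shDLGAP5-1. The groups were separated by 4.07 FPKM, between shNC-1 replicate 1 and shDLGAP5-1 replicate 1. Its log2 fold change was -0.82 (95% interval -1.20 to -0.44, limma adjusted p = 0.0123), and the call was lost without shNC-1 replicate 2 (adjusted p = 0.0534).

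The make-up of the complex at the transcript level can be read within each library, where it does not depend on how libraries were scaled. It can still depend on trends with transcript length that differ between libraries. AURKB made up 51.1%, 46.3% and 53.7% of the summed FPKM of the 4 subunits in shNC-1 and 57.2%, 60.1% and 54.6% in shDLGAP5-1. As deposited, its share was therefore higher in every shDLGAP5-1 library, by 6.87 percentage points on average, though the nearest libraries differed by under 1 point. AURKB has the shortest transcript of the 4 (1254 bases, against 2469 to 3964). In shDLGAP5-1 replicate 1, removal of each library's trend with transcript length took its log2 deviation from -0.69 to -0.98. There INCENP went from -1.33 to -1.25, BIRC5 from -0.61 to -0.65 and CDCA8 from -1.18 to -1.26. Shares were not computed after that removal, so whether the separation holds was not tested. CDCA8 made up 18.5%, 19.8% and 16.1% in shNC-1 and 14.1%, 14.1% and 15.7% in shDLGAP5-1, lower in every shDLGAP5-1 library, with a mean difference of -3.46 points. For both the exact two-sided permutation p was 0.1, the smallest that 3 against 3 libraries allow, or 0.2 when adjusted over the 4 shares. INCENP made up 15.9% to 19.0% in controls and 12.2% to 17.5% with shDLGAP5-1, and BIRC5 11.4% to 16.4% and 10.9% to 16.5%. These shares overlapped between groups, with exact permutation p of 0.3 and 0.8, and 0.4 and 0.8 when adjusted.

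**Figure D2:**
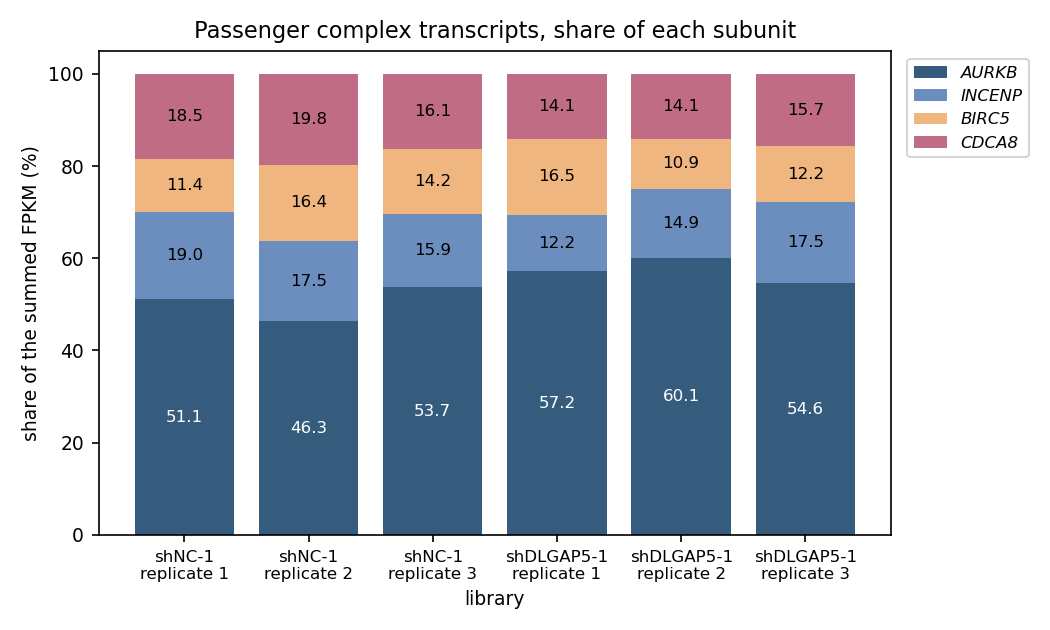
Share of each passenger complex transcript in the summed FPKM of the 4 (percent), for each library, with shNC-1 on the left and shDLGAP5-1 on the right. AURKB takes 46.3% to 53.7% in shNC-1 and 54.6% to 60.1% in shDLGAP5-1.

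The 3 midzone genes fell by similar amounts. PRC1, the microtubule bundler (ENSG00000198901, chromosome 15, 90966040 to 90995629), stood at 76.8, 80.0 and 90.5 FPKM in controls and at 41.9, 60.1 and 62.6 FPKM with shDLGAP5-1, where replicate 1 was well under the other libraries. Its log2 fold change was -0.60 (95% interval -0.99 to -0.20, limma adjusted p = 0.0402). PRC1 shares its strand with the overlapping entry AC068831.7 (3.02 to 5.24 FPKM over the 6 libraries) and overlaps the antisense PRC1-AS1 (0.0238 to 0.374 FPKM), so some reads may be divided among them.

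RACGAP1 (ENSG00000161800, chromosome 12, 49976923 to 50033136), the GTPase-activating subunit of centralspindlin, stood at 52.7, 55.4 and 50.01 FPKM in controls and at 33.4, 35.5 and 40.9 FPKM with shDLGAP5-1. Its mean was 30.5% lower, with a log2 fold change of -0.52 (95% interval -0.78 to -0.26, limma adjusted p = 0.0171). Its processed pseudogene RACGAP1P was listed at 0 in all 6 libraries. ECT2, the exchange factor for RHOA (ENSG00000114346, chromosome 3, 172750682 to 172821474), stood at 62.5, 61.7 and 56.7 FPKM in controls and at 32.7, 39.6 and 45.9 FPKM with shDLGAP5-1. The groups did not overlap, and the log2 fold change was -0.61 (95% interval -0.94 to -0.29, limma adjusted p = 0.0198). The calls of PRC1, RACGAP1 and ECT2 were lost without shNC-1 replicate 1, shNC-1 replicate 2 or shDLGAP5-1 replicate 2, with adjusted p of 0.0527 to 0.106, and that of PRC1 also without shNC-1 replicate 3 (0.114).

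ANLN, the ring scaffold anillin (ENSG00000011426, chromosome 7, 36389821 to 36453791), had a fold change close to that of CDCA8. It stood at 96.8, 104 and 87.8 FPKM in controls and at 50.8, 48.0 and 39.2 FPKM with shDLGAP5-1, with a gap of 37.0 FPKM between the groups. The log2 fold change was -1.05 (95% interval -1.36 to -0.75, limma adjusted p = 0.00274), and 1.45% of tested genes had a value that low or lower. Which of ANLN, CDCA8 and INCENP came lowest changed with the setting, for example -0.94, -1.10 and -1.11 without shDLGAP5-1 replicate 3. The start of ANLN overlaps KIAA0895, which lies on the opposite strand and stood at 2.02 to 3.21 FPKM.

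CEP55, the midbody organiser (ENSG00000138180, chromosome 10, 93496632 to 93529092), was the most abundant of the 10 transcripts per length in both groups. It stood at 139, 142 and 134 FPKM in controls and at 73.8, 66.99 and 81.3 FPKM with shDLGAP5-1, with no library between 81.3 and 134 FPKM. The log2 fold change was -0.90 (95% interval -1.15 to -0.65, limma adjusted p = 0.00241). CIT, citron kinase (ENSG00000122966, chromosome 12, 119685791 to 119877320), had the lowest mean in both groups, overlapping BIRC5 with shDLGAP5-1, at 13.96, 15.2 and 12.3 FPKM in controls and at 7.21, 9.53 and 13.8 FPKM with shDLGAP5-1. Replicate 3 of shDLGAP5-1 lay within the control range and replicates 1 and 2 under it. The log2 fold change of CIT was -0.44 (95% interval -0.95 to 0.06, limma adjusted p = 0.175; exact permutation p = 0.2). Without shDLGAP5-1 replicate 3, the library high in LYZ and PTPRC transcripts, it was -0.67 and called lower (adjusted p = 0.0302), and without shDLGAP5-1 replicate 1 it was -0.24 (adjusted p = 0.364). The part of those transcripts in the CIT value was not tested. CIT also has the longest transcript of the 10 (8708 bases). After removal of each library's trend with transcript length, its log2 deviations were -0.64, -0.45 and -0.12 in shDLGAP5-1 replicates 1 to 3. Those of its controls were -0.07, 0.09 and -0.02, so the groups did not overlap there. CIT was still not called (log2 fold change -0.40, limma adjusted p = 0.0765).

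**Figure D3:**
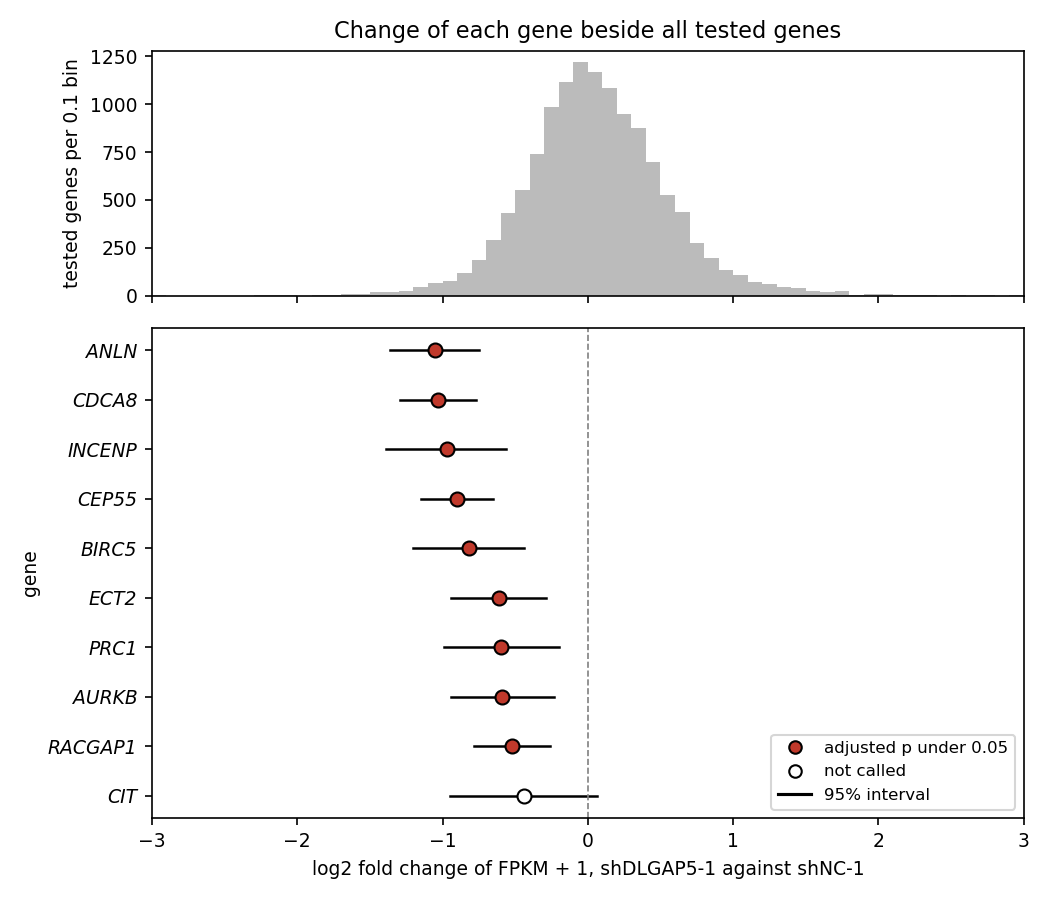
Top, the distribution of log2 fold changes of all 12714 tested genes in bins of 0.1, with values beyond 3 placed in the outer bins; bottom, the log2 fold change of each of the 10 genes with its 95% interval, filled where the adjusted p was under 0.05. All 10 estimates lie under 0, from -1.05 (ANLN) to -0.44 (CIT), and the interval of CIT alone reaches 0.

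By level per length, the order in shNC-1 was CEP55, ANLN, PRC1, AURKB, ECT2, RACGAP1, CDCA8, INCENP, BIRC5 and CIT. Libraries of neighbours overlapped for ANLN with PRC1, PRC1 with AURKB, CDCA8 with INCENP, and INCENP with BIRC5, so the order within these pairs is not resolved. In shDLGAP5-1 the order was CEP55, PRC1, AURKB, ANLN, ECT2, RACGAP1, INCENP, CDCA8, BIRC5 and CIT. ANLN, at rank 2 in the controls, was at rank 4 there, overlapping both AURKB and ECT2. Every pair of neighbours overlapped there except CEP55 with PRC1 and RACGAP1 with INCENP, so that order is resolved only at these 2 steps. The 6 more abundant genes stayed apart from the 4 less abundant ones in both groups.

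The shDLGAP5-1 libraries also differed among themselves. The median deviation from the control mean, on the log2 scale, was -0.88, -0.75 and -0.65 in shDLGAP5-1 replicates 1 to 3, while over all tested genes the medians were -0.01, 0.04 and 0.09. Replicate 1 was the lowest of its group for 7 of the 10 genes, AURKB, INCENP, CDCA8, PRC1, ECT2, RACGAP1 and CIT. ANLN went the other way, at -0.90, -0.98 and -1.27, and BIRC5 was lowest in replicate 2, at -0.61, -0.99 and -0.86. After removal of each library's trend with transcript length, the medians of the 10 genes were -0.82, -0.77 and -0.74, and replicate 1 was again lowest for 7 genes.

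**Figure D4:**
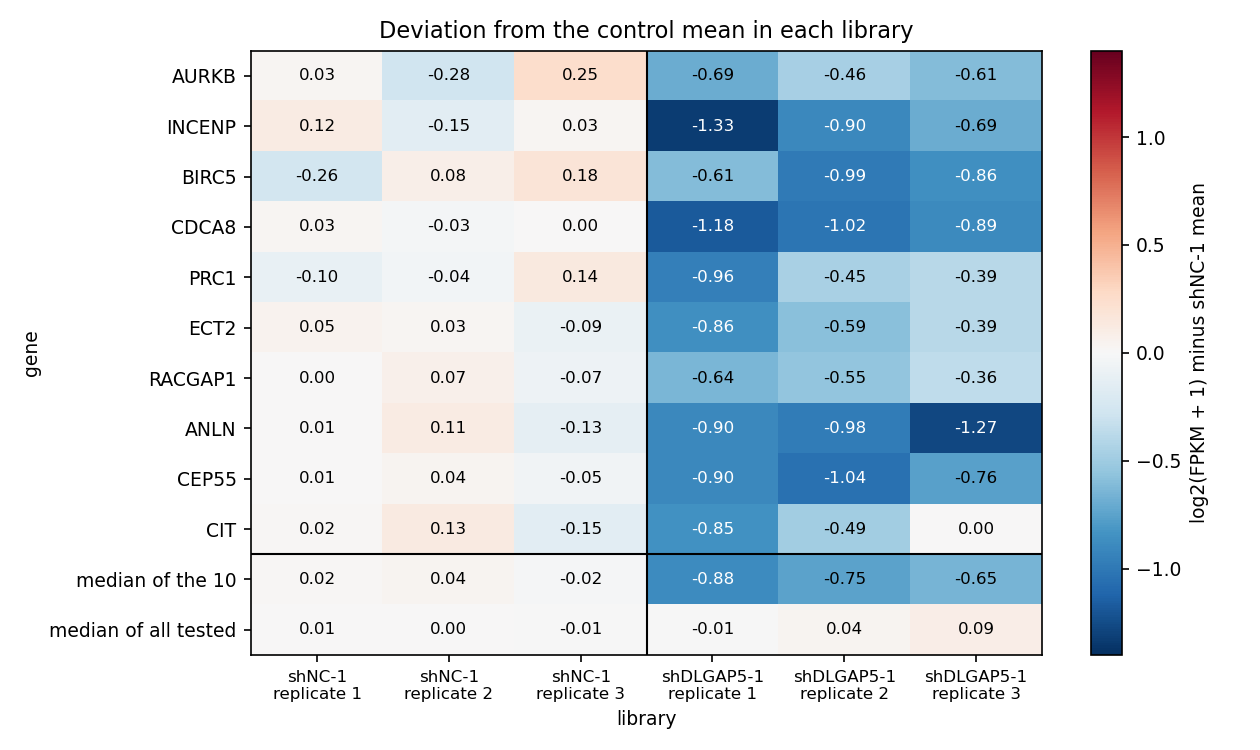
Deviation of each gene from its mean over shNC-1 in each library, as log2(FPKM + 1), with the medians of the 10 genes and of all tested genes at the bottom. Of the 10 genes, all shDLGAP5-1 values are under 0 except CIT in replicate 3 (0.00), and the control deviations reach at most 0.28 in size.

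Leaving out a control in turn, replicates 1 to 3, gave 5, 5 and 7 of the 10 genes called lower, beside 548, 472 and 715 of all tested genes. Leaving out a shDLGAP5-1 library in turn gave 8, 5 and 9 of the 10, beside 1004, 764 and 1364 of all tested genes, against 1211 with every library in the fit. INCENP, CDCA8, ANLN and CEP55 were called lower in each of these 6 fits and in each of 10 other settings tried, and the median of the 10 genes stayed between -0.67 and -0.77 when a library was left out. Every one of the 10 log2 fold changes was negative in all 16 alternatives.

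The genes that bring Aurora B to the centromere, or that it acts on there, were lower in part. Of 7 tested genes of this list 4 fell and 0 rose (median -0.50 on the log2 scale), where 9.52% of all tested genes fell and 15.3% rose. BUB1, the kinase whose histone mark places the complex at centromeres, went from 41.9 ± 2.66 to 21.6 ± 4.37 FPKM (SD, n = 3 each), with -0.94 as log2 change (limma adjusted p = 0.00622). CDCA2, a phosphatase adaptor that opposes Aurora B on chromatin, fell by 0.91 (adjusted p = 0.0111), and KIF2C, a microtubule-depolymerising kinesin that Aurora B phosphorylates, by 0.50 (adjusted p = 0.0122). The call of KIF2C was lost without shNC-1 replicate 2 (adjusted p = 0.0515), where 2 of the list and 472 of all tested genes were called lower. The other gene that fell was SGO2, a shugoshin of the centromere (-0.68, adjusted p = 0.0319), whose call was lost in 5 of 6 fits that left out a library, all but that without shDLGAP5-1 replicate 3 (adjusted p of 0.0652 to 0.106). The paralog AURKC was not tested, since it stood at no more than 0.330 FPKM in any library.

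The motors and the kinase of the central spindle were nearly all lower. Of 7 genes 6 fell and 0 rose, with a median of -0.73, where 9.52% of all tested genes fell and 15.3% rose. Without shNC-1 replicate 1 or 2, 4 of the 7 were called lower, beside 548 and 472 of all tested genes. KIF23, the kinesin that pairs with RACGAP1, stood at 31.4, 30.03 and 28.8 FPKM in controls and at 11.5, 13.6 and 18.3 FPKM with shDLGAP5-1 (log2 change -1.03, adjusted p = 0.00651 by limma), a larger estimate than the -0.52 of RACGAP1, a difference that was not tested. KIF20A, which carries the passenger complex to the midzone, stood at 27.4, 26.7 and 25.9 FPKM in controls and at 12.1, 11.6 and 11.5 FPKM with shDLGAP5-1 (-1.12, adjusted p = 0.000912). PLK1, the kinase that docks on PRC1, fell by 1.27 (adjusted p = 0.00133).

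In the wider machinery of the contractile ring 3 of 20 tested genes fell and 2 rose, with a median of -0.22. These shares are near the 9.52% called lower and the 15.3% called higher over all tested genes in the same fit. Those that fell were DIAPH3, a formin that nucleates actin (-0.76, limma adjusted p = 0.00496), MYH10, non-muscle myosin IIB (-0.70, adjusted p = 0.0181), and ARHGAP11A, a GTPase-activating protein for RHOA (-0.98, adjusted p = 0.0330). Those that rose were SEPT6, a septin, from 11.1 ± 0.156 to 18.02 ± 1.71 FPKM (SD, n = 3 each), with 0.64 as log2 change (limma adjusted p = 0.00755), and MYL12A, a myosin light chain (0.52, adjusted p = 0.0263). ARHGAP11A lost its call without any 1 of the controls or shDLGAP5-1 replicate 2 (adjusted p of 0.0607 to 0.105), and MYL12A in each fit that left out a library but that without shDLGAP5-1 replicate 3 (0.0523 to 0.103). Both were named because the counts are small, and they have close paralogs that can share reads. RHOA, on which ECT2 acts, stood at 284 FPKM in both groups (log2 fold change 0.00, adjusted p = 0.998), a gene chosen after its value was seen. The number that fell was 1 without shNC-1 replicate 1 or 2, where the call of MYH10 was lost (adjusted p = 0.0674 and 0.0669). These fits called 548 and 472 of all tested genes lower. Without shDLGAP5-1 replicate 3 the number was 5, beside 1364 of all tested genes. After removal of the length trend 6 fell and 2 rose, beside 1890 lower and 1893 higher of all 12714 tested genes. Under median-ratio scaling 5 fell and 1 rose, beside 1534 and 1691 of them. With no filter 1 fell and 1 rose, beside 769 and 1302 of 31433 genes. In each fit that left out a library other than shDLGAP5-1 replicate 3, 1 rose.

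In the membrane-cutting machinery of abscission, which CEP55 recruits, 2 of 20 tested genes fell and 0 rose, with a median of -0.13. That share is near the 9.52% called lower over all tested genes in the same fit. After removal of the length trend 4 fell, beside 1890 of all 12714 tested genes. VPS4B, the ATPase that takes the filaments apart, had a log2 fold change of -0.39 (limma adjusted p = 0.0322), and CHMP3, a filament subunit, -0.32 (adjusted p = 0.0478). CHMP3 lost its call in each of 6 fits that left out a library, and VPS4B in all but that without shDLGAP5-1 replicate 3. CHMP2A, a filament subunit, did not pass (0.51, adjusted p = 0.0537), and was called higher without shDLGAP5-1 replicate 3 (0.67, adjusted p = 0.0145) and with quantile normalization (0.57, adjusted p = 0.0369). Its estimate was smaller after removal of the length trend (0.34, 0.069), under median-ratio scaling (0.46, 0.102) and at equal column totals (0.40, 0.0692).

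Of 3 proliferation markers 1 fell and 0 rose, too few to set against the 9.52% and 15.3% over all tested genes. MKI67, the Ki-67 antigen of cycling cells, stood at 31.1, 31.1 and 21.4 FPKM in controls and at 5.47, 11.9 and 17.0 FPKM with shDLGAP5-1 (log2 change -1.32, adjusted p = 0.0365 by limma), a call lost without any 1 of the 3 shNC-1 libraries or shDLGAP5-1 replicate 2 (adjusted p of 0.0590 to 0.108). TOP2A, the topoisomerase of dividing cells, stood at 79.9 ± 3.56 and 69.6 ± 8.21 FPKM (SD, n = 3 each; -0.20, adjusted p = 0.244). PCNA, the replication clamp, stood at 126 ± 7.85 and 166 ± 21.2 FPKM, higher in every shDLGAP5-1 library but not past the threshold (0.39, adjusted p = 0.0589). It passed with quantile normalization (0.44, adjusted p = 0.0229). The estimate was smaller after removal of the length trend (0.23, 0.0931), under median-ratio scaling (0.34, 0.121) and at equal column totals (0.28, 0.098).

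**Figure D5:**
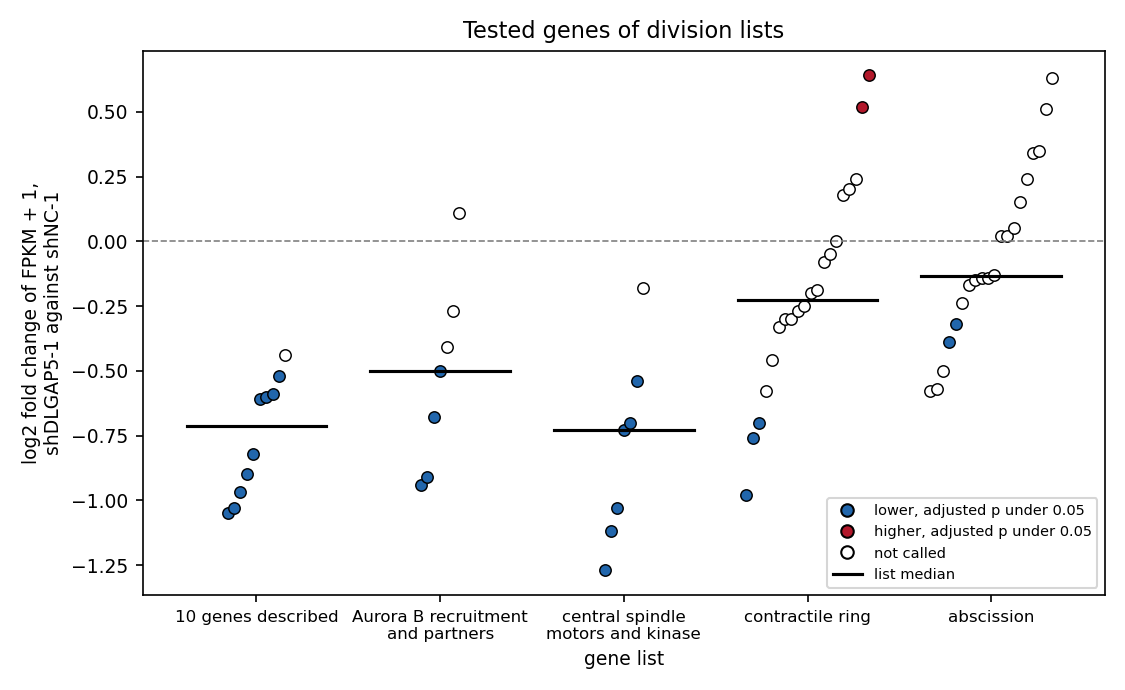
Log2 fold change of each tested gene of 5 lists (circles, in order of value), with the list median as a bar; blue marks genes called lower and red genes called higher. The medians run from -0.73 for the central spindle to -0.13 for abscission, and genes called higher are in the contractile ring list alone.

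The genes whose 6 library values were closest to the mean profile of the 10 were SHCBP1, AEN, ERCC6L, HSPH1 and NCL, among 8614 tested genes with a mean of at least 5 FPKM. Closeness was the root mean square distance, over the 6 libraries, of deviations from the control mean in log2(FPKM + 1). SHCBP1, which binds centralspindlin at the midbody, was nearest, at a distance of 0.030, with 17.7, 17.6 and 17.7 FPKM in shNC-1 and 8.61, 10.0 and 11.3 FPKM in shDLGAP5-1. The next were AEN, an apoptosis nuclease, ERCC6L, a helicase of ultrafine anaphase bridges, and HSPH1, a chaperone, each at 0.039, and NCL, nucleolin, at 0.042. Such a ranking over 6 libraries is a description of values.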

How the data were processed

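Polyadenylated RNA libraries of 6 T24 samples were grouped by their titles. The authors deposited 1 table of gene values, whose unit is not named in its header and was inferred from the values to be FPKM. Aligner, quantifier, annotation and strand setting: not given in the sources used here. Columns with the letters NC were matched to shNC-1, and the other 3, which carry a construct number, to shDLGAP5-1, the only other group. FPKM depend on the library total and on transcript length, and overlapping genes can share reads. Depth is approximate, since 18.6% to 31.2% of low values came out whole within 0.05, so no count test was run. Library pairs within a group differed by more than counting noise and none was identical.

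The test was limma 3.58.1 (R 4.3.3) on genes reaching 1 FPKM in 3 or more libraries, trended variance, group as the only term, on log2(FPKM + 1); fold changes are on that scale and understate those of low genes. The script was tested on simulated data. Gene lengths are those of the longest GENCODE 29 transcript. Gene coordinates are those of the deposited table, which GENCODE 29 shares for GRCh38. The genes and lists were chosen with earlier results of these data known. Named genes were the 10, DLGAP5, entries overlapping them, the 3 smallest p values of each of the 5 lists on division and proliferation and the 5 nearest profiles. SGO2, ARHGAP11A, MYL12A, RHOA, AURKC and the cell type markers singled out were named after their values were seen. Promoter letters were searched in RefSeq sequences. Alternatives were a pseudocount of 0.1, other filters (none, 5 FPKM), same-total, median-ratio and quantile scaling, length-trend removal (lowess, span 0.3), a replicate block, a robust prior and leaving out each library.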

Additional observations from a re-analysis of the deposited data

How the results depend on the processing

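Of the 10 genes 0 were called higher in any of 16 alternatives, and the number called lower ran from 5 to 9 when a library was left out, 6 with no filter (AURKB, PRC1 and ECT2 lost), 8 with quantile normalization (PRC1 lost) and 9 in the other settings without a block. The counts over all genes moved more, and the filters changed how many genes were tested. That number was 12714 as reported, 31433 with no filter and 8781 with a filter of 5 FPKM. The number called lower, 1211 as reported, was 769 with no filter, 1890 after removal of the length trend and 472 to 1364 when a library was left out. The number called higher, 1944 as reported, was 1168 with a filter of 5 FPKM, 1282 with columns scaled to the same total (1382 lower there) and 863 to 1777 when a library was left out; with median-ratio scaling 1691 were higher and 1534 lower, and with quantile normalization 1511 and 1464. DLGAP5 stayed between -2.58 and -2.19. RHOA, at 0.00, was -0.11 at equal column totals, -0.05 under median-ratio scaling, -0.12 after removal of the length trend, with or without the block, and -0.05 to 0.03 when a library was left out. The difference in the BIRC5 share of the passenger complex, -0.792 points, ran from -2.42 to 0.407 when a library was left out and was 0.0626 as a share of fragments, so it has no settled sign. The cause of these changes was not tested. Fits without a library had fewer samples, and fits with another filter had more or fewer genes.

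Whether the replicate numbers pair the samples is not given. Same-numbered libraries had deviations correlated at -0.155, 0.021 and -0.157 across genes, and different-numbered ones at -0.0654 to 0.193. These values still held each library's length trend, so they cannot settle the pairing. With the replicate block 5 of the 10 genes were called lower (AURKB, PRC1, ECT2 and RACGAP1 lost), with 513 lower and 951 higher over all genes. With the block after removal of the length trend 9 of the 10 were called lower, with 1137 lower and 1171 higher over all genes. No block was fitted for the subunit shares. Depth is approximate, so no counting interval was computed for any gene.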
